A study of Rattus norvegicus with 8 samples.

Results

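Elastic fibres are the stretchable cables of the extracellular matrix. A core of cross-linked elastin is laid down on a scaffold of fibrillin microfibrils, and microfibril-associated glycoproteins and fibulins bind the scaffold and guide the deposition of elastin. Fibrillin microfibrils also hold latent transforming growth factor beta (TGF-beta) in the matrix, and in muscle they lie in the connective tissue around the fibres and in vessel walls. The set described here consists of 10 such genes, namely elastin (Eln), the fibrillins Fbn1 and Fbn2, the microfibril-associated genes Mfap2, Mfap4 and Mfap5, the fibulins Fbln1, Fbln2 and Fbln5, and Efemp2, which encodes fibulin-4. They were found by gene symbol in the annotation of the array, where 9 of the 10 had a probe set, each a single one, among 15037 distinct symbols. The set was chosen by gene family and by values on these arrays, at least those of Eln and Mfap5 with and without nanoceria on ground, which were known beforehand. Fbln2 was not named there and has no value below.

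Expression was measured in H9c2 cells, a myoblast line from embryonic rat heart, grown on the International Space Station (space) or on Earth (ground). Some cultures received nanoceria, particles of cerium oxide with antioxidant activity, at 100 µg/ml, and the others received none. Space gave 1 untreated and 2 nanoceria-treated samples. Ground gave 2 untreated samples, numbered 1 and 3, and 3 that were treated. All groups were fixed on day 10 after seeding, and ground culture took place later, following the temperatures logged in flight. The regime therefore cannot be told apart from the culture run. Each sample, as 30 ng of total RNA, was measured on its own rat Clariom S Pico array, and levels below are log2 of the intensity of a probe set. Differences are on the log2 scale with their standard error (SE), and a difference of 1 is a doubling. The labels do not say whether replicates were separate cultures, and p-values therefore reflect only how far these samples differ, which may be technical. Each probe set binds its target with its own efficiency. Where levels of different genes are set side by side, as for cell type markers, their order is only a rough guide.

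Array medians ran from 107.3 to 116.6 in intensity, and the number of arrays limited the precision. Some ground arrays stood apart in gene lists that concern other processes, with list means given relative to all 8 arrays. The mean of 12 mitotic genes was -2.36 on ground untreated replicate 3, against -0.20 to 0.53 on the other 7 arrays, and the mean of 9 NRF2 targets (antioxidant response genes) was 0.87 there, against -0.46 to 0.12. The mean of 14 hypoxia genes was 0.60 to 1.10 on the 3 space arrays and 0.73 on ground nanoceria replicate 2, against -1.28 to -0.57 on the other 4 ground arrays. For some differences, the value without ground untreated replicate 3 or without ground nanoceria replicate 2 is also given. Differences printed alone can move as well. For example, Fbln1 in untreated cells was higher in space by 1.08, and by 1.25 without ground untreated replicate 3. Of the markers for the labelled cell type, 11 of 12 skeletal muscle genes were named on the array, with the myogenic regulator Myog at 6.25 to 9.89 and desmin, Des, at 6.64 to 7.80, and the summed intensity of the 11 ran from 1220 to 2560 in untreated cells on ground, 3500 to 5240 in treated cells on ground, 2700 in untreated cells in space and 2120 to 2920 in treated cells in space. The muscle regulators Myf5 and Myf6 lay lower, at 4.01 to 4.75 and 4.18 to 4.82. Fibroblast markers ran from the collagen gene Col1a1 at 14.10 to 14.24 down to Tcf21 at 3.66 to 4.56 and Fap at 4.10 to 4.90. Among smooth muscle markers, Acta2 was at 12.60 to 13.55 and Myh11 at 6.27 to 7.47. Among cardiomyocyte markers, Tnnt2 was at 9.18 to 11.43 and Myh7 at 4.84 to 5.27. Markers of other cell types were mixed. The endothelial marker Pecam1 lay at 4.16 to 4.73 and the leukocyte marker Ptprc at 4.03 to 4.62, below the lower quartile of all probe sets, 5.19. Above it lay the endothelial marker Kdr at 5.85 to 6.24 and the macrophage markers Cd14 at 7.72 to 9.18, Cd68 at 7.11 to 7.74 and C1qa at 7.45 to 8.60. Summed over 7 endothelial markers the intensity was 205 to 242 and 214 to 276 in untreated and treated cells on ground, and 225 and 219 to 222 in space. Over 7 macrophage markers it was 716 to 809 and 760 to 1000 on ground, and 603 and 630 to 648 in space.

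Promoter sequence from RefSeq (build GRCr8) was at hand for 7 of the 10 genes. It is shown for the pair of related microfibril-associated glycoproteins, Mfap5 and Mfap2, because their levels behaved unlike each other across the arrays as described below. Each line gives the 250 bases before the start that the table uses, 5′ to 3′ on the strand of the gene, which is the plus strand in both. Mfap5 lies at chr4:157399669-157399918 and Mfap2 at chr5:158597478-158597727. Capitals mark every match on either strand to CAGAC (a SMAD-binding element, the motif of the transcription factors downstream of TGF-beta), CANNTG (the E-box bound by myogenic factors), GGGCGG (a GC box), TGANTCA (an AP-1 site) or TATAA (the core promoter box).
Mfap5: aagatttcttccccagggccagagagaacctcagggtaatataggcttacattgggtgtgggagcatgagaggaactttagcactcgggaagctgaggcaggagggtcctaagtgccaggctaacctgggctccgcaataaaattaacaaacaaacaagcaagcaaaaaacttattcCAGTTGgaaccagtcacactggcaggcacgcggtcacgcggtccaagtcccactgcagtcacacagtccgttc
Mfap2: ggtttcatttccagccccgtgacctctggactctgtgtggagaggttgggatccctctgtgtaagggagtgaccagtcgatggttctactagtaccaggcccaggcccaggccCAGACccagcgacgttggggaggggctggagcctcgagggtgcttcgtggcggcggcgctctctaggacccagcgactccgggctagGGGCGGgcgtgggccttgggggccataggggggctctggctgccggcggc

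The windows of the pair held different motif letters. The Mfap5 window had 1 E-box, from 73 to 68 bases before the start, and a GC content of 51.6%, close to the median of 51.2% over all 33469 promoters of the table. In the Mfap2 window, with a GC content of 67.6%, there was 1 SMAD-binding element and 1 GC box. Over all promoters, 42.9% held the SMAD-binding element, 65.5% an E-box, 30.5% a GC box, 6.34% an AP-1 site and 24.0% the core promoter box. Among the 7 genes with a promoter, the SMAD-binding element was found in 4 (Mfap2, Fbn1, Fbn2 and Fbln5), the E-box in 4 (Mfap5, Fbln2, Fbln5 and Efemp2) and the GC box in 4 (Mfap2, Fbln2, Fbln5 and Efemp2), and the other motifs in 0. These matches are letters in a window and say nothing of binding.

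**Figure D1:**
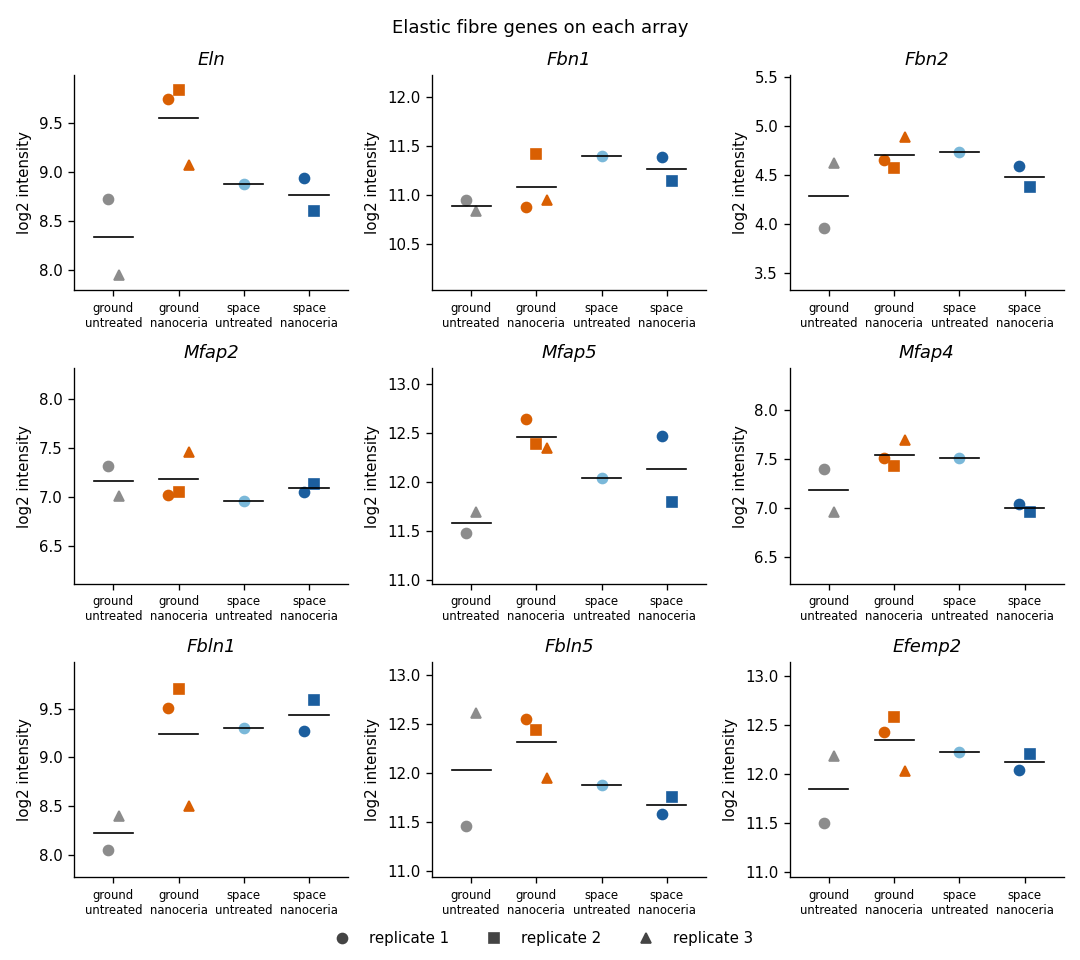
Log2 intensity (vertical axis, spanning the same number of log2 units in every panel) of the 9 elastic fibre genes on each of the 8 arrays, by group, with the replicate number as the symbol and the group mean as a line. Eln, Mfap5, Mfap4 and Fbln1 show all 3 treated ground arrays above both untreated ground arrays, and Mfap2 varies least, over 0.50 log2 units.

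Elastin, the core of the fibre, was highest in nanoceria-treated cells on ground. Eln lay at 8.73 and 7.95 on ground untreated replicates 1 and 3, at 9.75, 9.84 and 9.07 on ground nanoceria replicates 1 to 3, at 8.88 in untreated cells in space and at 8.60 to 8.94 in treated cells in space. The 3 treated ground arrays were thus the 3 highest of all 8, and the space arrays lay between them and ground untreated replicate 3. On ground, the untreated mean was 8.34 ± 0.55 (SD, n = 2) and the treated mean 9.55 ± 0.42 (SD, n = 3), a difference of 1.21 ± 0.32 (SE), or 2.31-fold. This difference, like that of Mfap5, was known when the genes were chosen, so every value for nanoceria on ground is a description and has no test. It was 0.82 without ground untreated replicate 3 and 1.60 without ground untreated replicate 1.

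Mfap5 and Mfap2 encode the 2 small microfibril-associated glycoproteins that bind fibrillin. Mfap5 lay at 11.48 and 11.69 in untreated and at 12.64, 12.39 and 12.35 in treated cells on ground, at 12.04 in untreated cells in space and at 12.47 and 11.80 on space nanoceria replicates 1 and 2. On ground the groups stood apart by more than their replicates did, with means of 11.58 ± 0.15 (SD, n = 2) and 12.46 ± 0.15 (SD, n = 3), whereas the treated pair in space lay on either side of the untreated array. The ground difference of 0.87 ± 0.23 (1.83-fold) ran from 0.76 to 0.98 when each array was left out in turn. Mfap2 lay between 6.96 and 7.46 on all 8 arrays, and its ground difference was 0.02 ± 0.20. Over the arrays the SD was 0.42 for Mfap5 and 0.17 for Mfap2.

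Mfap4, a fibrinogen-like protein that binds elastin and fibrillin, lay at 7.40 and 6.96 in untreated and at 7.51, 7.43 and 7.69 in treated cells on ground. In space the order was the other way round, with 7.51 in untreated and 7.04 and 6.96 in treated cells. Nanoceria against no treatment thus gave 0.36 ± 0.19 on ground (0.14 without ground untreated replicate 3) and -0.51 ± 0.25 in space. The mean of the skeletal muscle markers moved beside it on ground, at -0.89 on ground untreated replicate 3, where Mfap4 was at 6.96, and 0.67 on ground nanoceria replicate 3, where Mfap4 was highest. In space the marker mean was -0.01 on the untreated array, where Mfap4 was at 7.51. It was -0.21 and -0.01 on space nanoceria replicates 1 and 2, where Mfap4 was at 7.04 and 6.96. The part of muscle differentiation in the Mfap4 values was not tested.

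Fibrillins form the microfibril itself. Fbn1 lay at 10.95 and 10.84 in untreated cells on ground, at 10.88, 11.42 and 10.95 on ground nanoceria replicates 1 to 3, at 11.40 in untreated cells in space and at 11.39 and 11.15 in treated cells in space. The 4 highest values belonged to the 3 space arrays and ground nanoceria replicate 2, which were also the 4 arrays with the highest mean of hypoxia genes. Whether oxygen-responsive regulation had a part in Fbn1 was not tested. Fbn2, the fibrillin of embryonic tissue, ran from 3.96 on ground untreated replicate 1 to 4.89 on ground nanoceria replicate 3. Its mean lay at percentile 14.6 of all probe sets, and as no background measure was at hand it is unknown whether the probe set was above background.

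**Figure D2:**
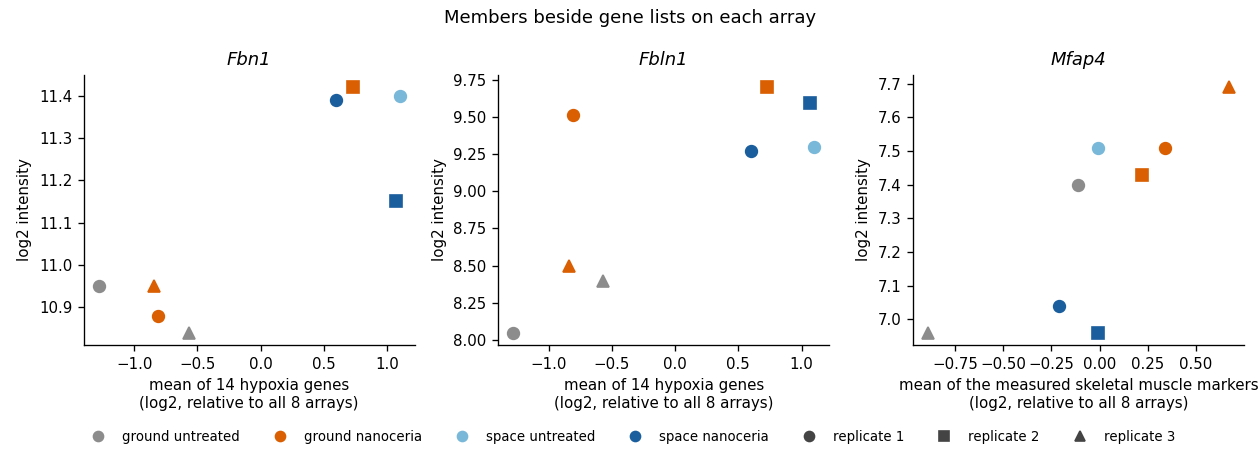
Log2 intensity of Fbn1 and Fbln1 (vertical axes) against the mean of 14 hypoxia genes, and of Mfap4 against the mean of 11 skeletal muscle markers (horizontal axes, log2 relative to the mean of all 8 arrays), 1 point per array. Fbn1 is between 11.15 and 11.42 on the 4 arrays with a hypoxia mean of 0.60 or more and between 10.84 and 10.95 on the other 4, whereas Fbln1 is also high, at 9.51, on ground nanoceria replicate 1. Mfap4 is at 7.51 on the space untreated array and 6.96 on space nanoceria replicate 2, both at a marker mean of -0.01.

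Fibulins link elastin to the microfibrils and to the cell. Fbln1 was lowest in untreated cells on ground, at 8.05 and 8.40, and lay at 9.51, 9.70 and 8.50 in treated cells on ground, 9.30 in untreated cells in space and 9.27 and 9.59 in treated cells in space. Ground nanoceria replicate 3 was close to the untreated pair, so that the treated group spread over 1.20, and the ground difference of 1.01 ± 0.35 (2.02-fold) became 1.38 without that array and 0.78 without ground nanoceria replicate 2. Fbln5, which tethers elastin to integrins, was at 11.45 and 12.61 on ground untreated replicates 1 and 3, the lowest and the highest of all 8 arrays, with a gap of 1.17. Its sign for nanoceria on ground therefore depended on the untreated array used, with 0.28 ± 0.35 over both, -0.30 without replicate 1 and 0.86 without replicate 3. Efemp2, whose product brings lysyl oxidase to elastin, was at 11.50 and 12.18 in untreated and at 12.43, 12.58 and 12.03 in treated cells on ground, and between 12.04 and 12.22 on the 3 space arrays. Fbln1 and Efemp2 had a Pearson's r of 0.80 over the 8 arrays and Fbln5 and Efemp2 one of 0.74, given as descriptions, since the arrays share groups and culture runs.

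Seen by array, 4 of the 9 genes were highest on ground nanoceria replicate 2 (8.79% of all probe sets were) and 3 on ground nanoceria replicate 3 (23.7% of all). Of the lowest values, 5 fell on ground untreated replicate 1 (14.6% of all probe sets) and 2 on ground untreated replicate 3 (16.5%). The mean over the 9 genes, relative to all arrays, was -0.40 and -0.24 on these untreated arrays, 0.28, 0.33 and 0.06 on the treated ground arrays and -0.09 to 0.06 in space. Less RNA per cell and fewer cells of one kind cannot be told apart in such bulk samples.

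On ground, all 9 genes had a higher mean with nanoceria, with a median difference of 0.41, beside 0.04 over all probe sets. This did not hold with every array left out. Without ground untreated replicate 3, Mfap2 turned to -0.13, and Fbn2 and Efemp2 rose to 0.74 and 0.85. Fbn1 fell to 0.02 without ground nanoceria replicate 2, and Fbln5 turned as given above. The groups did not overlap for 4 of the 9 (Eln, Mfap5, Mfap4 and Fbln1), all higher with nanoceria, where 14.3% of all probe sets were higher without overlap. Since this contrast was in view when the genes were chosen, nothing is read from these counts. Many other lists moved as well. Higher with nanoceria were 12 of 12 mitotic genes (median 1.14), 12 of 14 hypoxia genes (0.75) and 10 of 11 skeletal muscle markers (0.63). So were 6 of 9 smooth muscle and myofibroblast markers (0.36), 9 of 10 cardiomyocyte markers (0.13) and 8 of 10 fibroblast markers (0.10). All 9 NRF2 targets were lower (-0.50). Within groups, the mitotic, hypoxia and NRF2 means stood apart on single arrays. Mitotic means were 0.43 and -2.36 on ground untreated replicates 1 and 3, and 0.35, 0.50 and -0.20 on treated replicates 1 to 3. In the same order, hypoxia means were -1.28 and -0.57, and -0.81, 0.73 and -0.84. NRF2 means were -0.18 and 0.87, and -0.21, -0.06 and -0.46. The part of these lists in the result was not tested. In limma's fit with Benjamini-Hochberg adjustment, the share of all probe sets called in this contrast was 0.0%, and 11.0% had an unadjusted p below 0.05. Without ground untreated replicate 3, 7 of the 9 genes stood higher without overlap against 29.9% of probe sets, and without ground nanoceria replicate 2 there were 5, against 20.9%.

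In space, nanoceria was compared with no treatment over 2 arrays and 1. The differences ran from -0.51 for Mfap4 to 0.13 for Mfap2, and the median was -0.12 (0.01 over all probe sets). Eln differed by -0.12 ± 0.43, Mfap5 by 0.10 ± 0.31 and Fbln1 by 0.12 ± 0.48, intervals wide enough to leave the size of the effect poorly known. By limma with Benjamini-Hochberg adjustment 0.0% of probe sets were called, and at an unadjusted p below 0.05 there were 0 of the 9 genes against 1.47% of all. The treated arrays lay above the untreated one in 1 of the 9, Mfap2 (34.4% of all probe sets), and below it in 5 (31.5%). The difference between the 2 regimes in the nanoceria effect, ground minus space, was 1.32 ± 0.53 for Eln, 0.77 ± 0.38 for Mfap5, 0.89 ± 0.59 for Fbln1 and -0.11 ± 0.33 for Mfap2. It includes the ground contrast that was known beforehand and has no test here.

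**Figure D3:**
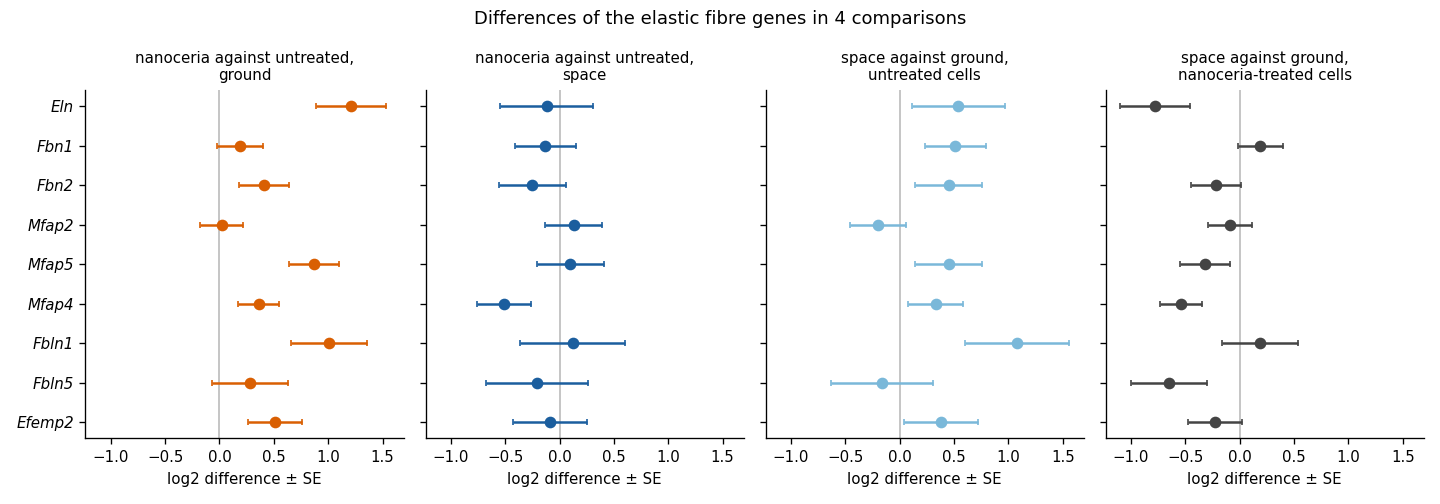
Log2 differences (points, horizontal axis) with their SE (bars) for the 9 elastic fibre genes in 4 comparisons from the fit with 1 mean per group. Nanoceria on ground gave positive values for all 9 (Eln at 1.21, Mfap2 at 0.02), and space against ground in treated cells gave negative values for 7 of the 9.

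Space was compared with ground to see which genes followed the regime. In nanoceria-treated cells, 7 of the 9 genes had lower means in space, with a median of -0.23 beside -0.05 over all probe sets. Muscle markers lay lower as well, with 8 of 11 skeletal muscle markers lower at a median of -0.29 (Tnni1 at -1.57 ± 0.41, Acta1 at -1.50 ± 0.47 and Chrna1 at -1.38 ± 0.35, chosen after their values were seen). Of 9 smooth muscle and myofibroblast markers, 6 were lower at a median of -0.22, and 5 of these without overlap. Fibroblast markers were lower in 9 of 10 (median -0.09) and cardiomyocyte markers in 8 of 10 (-0.11). Hypoxia genes were higher in 13 of 14 (1.03), NRF2 targets in 7 of 9 (0.25) and mitotic genes in 7 of 12 (0.23). The part of these lists in the result was not tested. Eln differed by -0.78 ± 0.32, a level 1.72-fold lower in space, with 8.77 ± 0.24 (SD, n = 2) against 9.55 ± 0.42 (SD, n = 3). For Mfap4 the difference was -0.54 ± 0.19 (1.46-fold lower), and for Fbln5 it was -0.65 ± 0.35. In these 3 genes both space arrays lay below all 3 ground arrays, where 17.6% of all probe sets were lower without overlap. The treated ground arrays are those of the contrast known beforehand, in which they were high for Eln, so these values are a description with no test of the 9 genes. Over all probe sets, 0.0% passed limma's test with Benjamini-Hochberg adjustment and 8.41% had an unadjusted p below 0.05.

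Without ground nanoceria replicate 2, the 3 genes and Fbn2 lay lower in space without overlap (25.1% of probe sets did) and Fbn1 lay higher (19.1%). The remaining genes gave -0.32 ± 0.23 for Mfap5, -0.23 ± 0.25 for Efemp2, -0.22 ± 0.23 for Fbn2, -0.09 ± 0.20 for Mfap2 and 0.19 for Fbn1 and Fbln1, with SE of 0.21 and 0.35. The sign of Fbln1 turned without ground nanoceria replicate 3, to -0.18, and that of Mfap5 without space nanoceria replicate 2, to 0.02.

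In untreated cells, the single space array lay above both ground arrays in 7 of the 9 genes (26.3% of all probe sets did) and below both in 1, Mfap2 (30.9%). The means were higher by 1.08 ± 0.48 for Fbln1, 0.54 ± 0.43 for Eln, 0.51 ± 0.28 for Fbn1 and 0.45 ± 0.31 for Mfap5, and differed by -0.16 ± 0.47 for Fbln5. The value for Eln was 0.15 without ground untreated replicate 3 and 0.93 without replicate 1, and that for Fbln5 was 0.42 and -0.75 in the same order, so that its sign turned. Without ground untreated replicate 3, the space array was the higher in 8 of the 9 genes (45.3% of all probe sets). With both ground untreated arrays also in the contrast known beforehand, these are descriptions; 0.0% of all probe sets were called and 3.14% had an unadjusted p below 0.05. Eln and Mfap4 thus had opposite orders in the 2 treatments, with every treated array in space below, and the untreated array in space above, the ground arrays of its treatment. Such an order was seen in 2 of the 9 genes and 5.25% of all probe sets. The nanoceria effect was of opposite order in the 2 regimes in 1, Mfap4 (5.4% of all), which was also the 1 gene with opposite orders in both ways (2.43%).

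Over both treatments, the contrast of space with ground also includes the ground arrays on which values were known beforehand. The values of the 9 genes are therefore a description with no test. Fbn1 was higher in space by 0.30 ± 0.16 and Fbln1 by 0.51 ± 0.30. Fbln5 was lower by -0.48 ± 0.27, Eln by -0.31 ± 0.32 and Mfap4 by -0.23 ± 0.20. Without the space untreated array Eln lay at -0.78, Mfap4 at -0.54, Fbln1 at 0.19 and Fbn1 at 0.19. Without space nanoceria replicate 2 Eln lay at -0.07 and Mfap4 at -0.11, and Fbln5 ran from -0.68 to -0.33 over the arrays left out. The other 4 genes lay between -0.13 and 0.02, and the median of the 9 was -0.04, as over all probe sets. Over all probe sets, 0.0% passed limma's test with Benjamini-Hochberg adjustment and 9.56% had an unadjusted p below 0.05. The 3 space and 5 ground arrays overlapped in each of the 9 genes, where 1.97% of probe sets were higher and 3.14% lower without overlap. Without ground nanoceria replicate 2, the space arrays lay above all ground arrays in Fbn1, at a difference of 0.41, where 2.89% of probe sets did so. The direction for Efemp2, Fbn2 and Mfap5 turned with the array left out.

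Partners of the elastic fibre were taken from gene lists drawn up from their known roles, with earlier results of these data known. Among 19 measured genes for other microfibril and elastic fibre proteins, 3 were higher and 1 lower in space over both treatments at an unadjusted p below 0.05, and 0 passed the adjustment. The latent TGF-beta binding protein gene Ltbp2, whose product also binds fibulin-5, lay at -0.63 ± 0.14 (adjusted p = 0.334, limma) and the proteoglycan gene Vcan, versican, at 0.79 ± 0.20. Decorin, Dcn, a small proteoglycan of collagen and microfibrils, lay at 0.49 ± 0.20.

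Cross-linking makes elastin insoluble, and lysyl oxidases perform it with copper that the pump Atp7a supplies. Of 15 measured genes for cross-linking and elastin handling, 3 were higher and 0 lower in space at an unadjusted p below 0.05. They were P4ha1, a collagen prolyl hydroxylase subunit that hypoxia induces, at 1.05 ± 0.32, Loxl2, a lysyl oxidase-like enzyme, at 0.50 ± 0.19, and Atp7a at 0.80 ± 0.35. In treated cells alone, 12 of the 15 were lower in space. Among them was Loxl1, the family member that acts with fibulin-5 on elastin, at -0.44 ± 0.16 (adjusted p = 0.544, limma). In untreated cells Loxl1 was at 11.16 in space and at 10.91 and 11.15 on ground. Lox was not named on the array here.

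For the 9 measured genes of fibrillin processing and the ADAMTS-like family, 0 were higher and 4 lower. Among these, Adamtsl4, a fibrillin-binding protein, was at -0.58 ± 0.19, the fucosyltransferase gene Pofut2 at -0.42 ± 0.14 and Adamtsl5 at -0.36 ± 0.13. Furin, the protease that trims profibrillin, was at -0.47 ± 0.16 in treated cells. Of 18 measured TGF-beta and BMP signalling genes, 3 were higher and 2 lower, with Inhba, an activin subunit, at 1.22 ± 0.21 (adjusted p = 0.320, limma), the co-receptor gene Tgfbr3 at 0.66 ± 0.22 and the co-receptor gene Eng, endoglin, at -0.42 ± 0.13.

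Receptors at the cell surface gave 1 higher and 2 lower of 10 measured integrin and syndecan genes. Itga8, an integrin subunit that binds fibronectin and other matrix ligands, was at 1.15 ± 0.33, Itgb5 at -0.40 ± 0.12 and Sdc1 at -0.29 ± 0.13. Among 20 measured elastin-degrading enzymes and inhibitors, 1 was higher, the metalloprotease inhibitor gene Timp3 at 0.82 ± 0.16 (adjusted p = 0.329, limma), and 1 lower, the membrane metalloprotease gene Mmp14 at -0.32 ± 0.14. In all of these lists 0 genes passed the adjustment over all probe sets, and 9.56% of probe sets had an unadjusted p below 0.05. List medians were 0.07, -0.15, -0.17, 0.17, 0.00 and -0.09 in the order given, beside -0.04 over all probe sets.

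**Figure D4:**
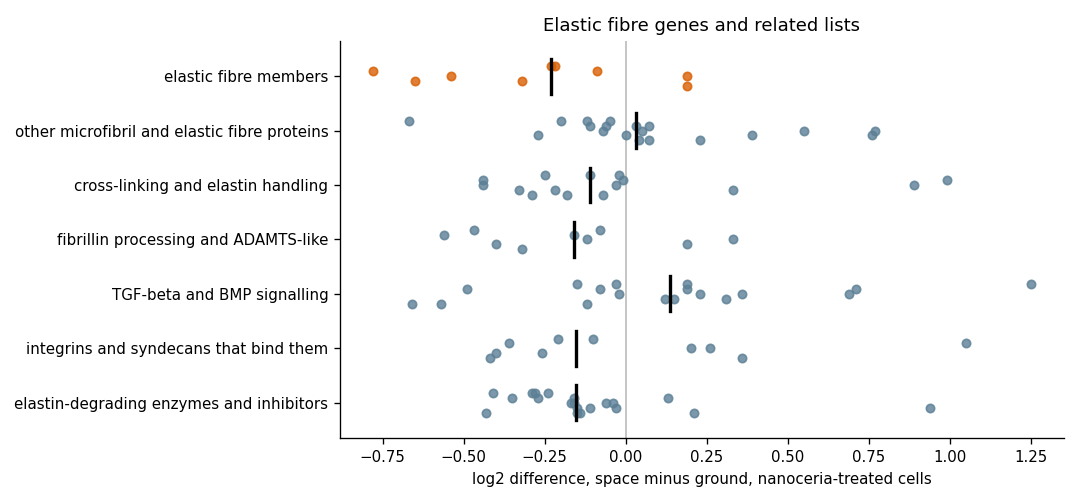
Log2 difference between space and ground in nanoceria-treated cells (horizontal axis) for each measured gene of the elastic fibre set and of 6 related lists, with the list median as a black bar. The elastic fibre genes have a median of -0.23, and the medians of the other plotted lists lie between -0.16 and 0.13. The medians of skeletal and smooth muscle markers, not plotted, are -0.29 and -0.22.

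Across the arrays, the genes whose pattern was most like that of Eln were Pth1r (Pearson's r = 0.946), Srf (0.942), Trib1 (0.942), Grm4 (0.926) and Nkain4 (0.923), among 5637 symbols with an SD of at least 0.3 over the 8 arrays. For Mfap4, named outside that rule after its values were seen, they were Actc1 (0.933), Myl11 (0.921), Mybph (0.906), Myl1 (0.901) and Chrnd (0.901). These coefficients describe 8 arrays that share groups and culture runs.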

How the data were processed

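Per the submitters' processing notes, the authors normalized the arrays with RMA. They deposited 1 linear intensity per probe set and array (8.63 to 19506), with software and settings not given in the sources used here. Log2 was taken without a pseudocount. Of 23188 probe sets, 15049 carried a single symbol, 8139 none and 0 several, and matching by gene identifier to a RefSeq table changed 0 symbols. The brightest probe set stood for a symbol.

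Differences were fitted over all probe sets with lmFit and eBayes of limma (version 3.58.1, under R 4.3.3), and p-values were adjusted by Benjamini-Hochberg at a threshold of 0.05. An additive fit of regime and treatment gave space against ground over both treatments, and a fit with 1 mean per group gave the rest. The single untreated space array takes its spread from the remaining groups. The fits were tested on simulated data. Tests of the 9 genes were planned for space against ground, over both treatments and in treated cells, and for nanoceria in space. Their p-values are not given for the 9. For space against ground, the ground arrays were in view when the genes were chosen. For nanoceria in space, the untreated group is a single array.

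All genes of the set are named, as are the up to 3 genes of each related list with the smallest p for space against ground (over both treatments or in treated cells), of which a selection is printed, and the 5 genes most like Eln. Members and lists were chosen with earlier results of these data known. Alternatives were 2 scalings, brighter probe sets only, variance settings, array weights, a replicate block, another regime contrast, the mean of a symbol's probe sets and leaving out each array. Leaving out 2 ground arrays together was added after seeing the data.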

Additional observations from a re-analysis of the deposited data

Results flagged for a closer look

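The effect of regime on Eln ran in opposite orders in the 2 treatments, with every array on its side: higher in space than on ground in untreated cells (8.88 against 7.95 and 8.73) and lower in treated cells (8.60 and 8.94 against 9.07 to 9.84). The difference between the effects was 1.32 ± 0.53 (SE) on the log2 scale and was not tested, since it contains the ground contrast known beforehand.

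For Mfap4 every array was in opposite order both for space against ground in the 2 treatments and for nanoceria in the 2 regimes. Both orders share a single difference between effects, 0.88 ± 0.31, also not tested. The order of nanoceria on ground was narrow, with 7.43 on treated replicate 2 against 7.40 on untreated replicate 1. That effect was 0.14 without ground untreated replicate 3. Opposite order of the regime effect was seen in 2 of the 9 genes and 5.25% of all probe sets. For the nanoceria effect it was seen in 1 of the 9 and 5.4%. With only 9 genes, chosen with values in view, nothing is read from these counts.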

How the results depend on the processing

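With the arrays weighted by quality, 4 probe sets passed for space against ground over both treatments, against 0 with equal weights. That count was 0 to 1 when 1 array was left out (1 without ground untreated replicate 3 or without ground nanoceria replicate 2) and 2 without both. For nanoceria on ground the count was 0 to 167 and for space in untreated cells 0 to 6 on leaving out 1 array, the highest without ground untreated replicate 1. For the 9 genes, only the sizes of the differences are given under these alternatives. Directions of small differences turned. Over both treatments, Efemp2 was 0.0055 under cyclic loess, 0.08 as the average of the within-treatment differences and 0.17 without both ground arrays, and Mfap5 was 0.07 as that average. On leaving out 1 array, Efemp2 ran from -0.23 to 0.10, Fbn2 from -0.22 to 0.15 and Mfap5 from -0.32 to 0.22. For space in treated cells, Fbln1 was -0.01 with array weights and ran from -0.18 to 0.42, Mfap2 from -0.17 to 0.05 and Mfap5 from -0.66 to 0.02. For nanoceria in space, Eln ran from -0.29 to 0.06, Fbln1 from -0.03 to 0.28 and Mfap5 from -0.23 to 0.44. For nanoceria on ground, Mfap2 ran from -0.13 to 0.17 and Fbln5 from -0.30 to 0.86. The cause of these changes was not tested. With the replicate number as a block, 0 probe sets passed in every comparison, and Fbln1 was -0.00069 for space in treated cells and -0.09 for nanoceria in space. Deviations from the group means had r = -0.30 and -0.35 between same-numbered ground samples. With only 2 untreated ground arrays, their deviations mirror each other. These values therefore cannot show whether same-numbered samples belong together. Signal over background could not be judged, which limits Fbn2.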
